A study of Mus musculus with 5 samples.

Results

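The comparison described here sets granulosa cells that lack C/EBPα and C/EBPβ against wild-type granulosa cells, 8 h after an ovulatory dose of gonadotropin. It rests on 2 of the 5 mouse arrays of the series, 1 per genotype, chosen by their titles. Both groups received equine chorionic gonadotropin (eCG), which stimulates follicle growth, during 48 h. An 8 h exposure to human chorionic gonadotropin (hCG) followed, a hormone that acts through the receptor of luteinizing hormone (LH). The animals were 23 days old, and no strain is named. The control group is labelled wild type, with no allele named. The knockout group, labelled CEBPα/β with fl/fl for each gene, also carries Cyp19-cre, so that both floxed genes were to be removed by a recombinase under the Cyp19 promoter, which is active in granulosa cells. Other ovarian cells in such a preparation therefore need not lack the factors. The labels do not say how many animals gave each RNA sample. A second pair of arrays, of the same genotypes 24 h after hCG at 24 days of age, is given beside the 8 h values. It shares no array with the 8 h pair.

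C/EBPα and C/EBPβ are basic leucine zipper transcription factors that bind DNA as dimers. In ovulatory follicles the LH signal runs through epidermal growth factor receptor ligands and the ERK kinases, and C/EBPβ is one of the factors induced downstream of them. Granulosa cells then stop behaving as follicle cells, expand the matrix around the oocyte, make prostaglandins and turn into luteal cells, while vessels and stromal cells from the theca layer move toward them. A granulosa preparation can therefore hold endothelial cells, pericytes, fibroblasts and blood cells. In such bulk RNA, fewer cells of a type and less RNA per cell cannot be told apart.

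Values are intensities of Affymetrix probe sets, on a linear scale. A gene was represented by 1 probe set, the one with the highest mean of both arrays, which gave 18194 genes. Of these, 13598 (74.7%) reached an intensity of 18 on at least 1 of the 2 arrays, the 40th percentile of the values of both arrays, which is used as a floor, and are called above the floor. A gene is called lower or higher when its intensities differed at least 2-fold and the higher one reached the floor. A fold whose smaller value fell short of the floor was taken against the floor instead and is written as "at least". With 1 array per group there was no test, no replicate error and no p-value, and each difference below is between 2 single arrays. Between different probe sets of the same gene, log2 differences varied with an SD of 0.29 over 6238 genes, which is technical spread only. The arrays had median intensities of 32 in wild type and 31 in the knockout.

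The preparations carried their granulosa label. Inha, the α subunit of inhibin, had an intensity of 16632 in wild type and 20053 in the knockout. Foxl2, a transcription factor that keeps the granulosa fate, had 1293 and 1172. Of the 46 listed genes of granulosa identity and follicle growth, 45 were named on the array and all 45 were above the floor on both arrays. The aromatase gene Cyp19a1 is the member not analysed here. Of 53 endothelial genes, 47 also reached the floor in wild type, since only 6 lay under it, so genes typical of other ovarian cells were measured as well.

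The signals of Cebpa and Cebpb, the targeted genes, were lower on the knockout array. Cebpa had an intensity of 685 in wild type and 19 in the knockout, 36.1-fold lower and close to the floor. Cebpb had 7436 and 1127, 6.60-fold lower, and its other probe set had 2926 and 275. Cebpb thus kept a measurable signal in the knockout at 8 h. At 24 h the same probe sets read 352 and 38 for Cebpa and 3976 and 85 for Cebpb. The remaining array, of the knockout 4 h after hCG at 23 days of age, read 42 and 25 for the 2 Cebpb probe sets. It has no wild-type array beside it, and its scale may differ from that of the other arrays. The housekeeping genes Eef1a1 and Actb read 51728 and 14445 on it, against 17276 and 17978 in the knockout at 8 h. Lep and Gys2, under the floor on both 8 h arrays, read 17 and 18 on it, against 7 and 7. Which parts of the genes the probes match relative to the deleted segments is not stated in the labels.

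Most genes had nearly the same level in both genotypes. Log2 differences, knockout minus wild type, had a median of -0.01 over the 13598 genes, and 11390 genes (83.8%) lay within 0.5 of 0. The log2 intensities of both arrays correlated with r = 0.974 across genes, which are not independent replicates. The tails were unequal. By the size rule 535 genes were lower in the knockout, 3.93% of those above the floor, and 207 were higher, 1.52%. Among larger changes the imbalance grew: 186 genes were at least 3-fold lower against 52 higher, and 57 were at least 5-fold lower against 10 higher. For 73 of the lower and 32 of the higher genes the fold is a bound, and 506 and 186 genes remained at least 2-fold different at the bound. Of the lower genes, 227 had at least 2 probe sets above the floor, and all of these passed the rule in 105 (46.3%). Among the higher genes this held for 36 of 76 (47.4%). Lower calls made up 5.18% and 5.71% of genes in the dimmest and the next of 4 equal bins of mean intensity, and 2.68% and 2.18% in the brighter ones.

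**Figure D1:**
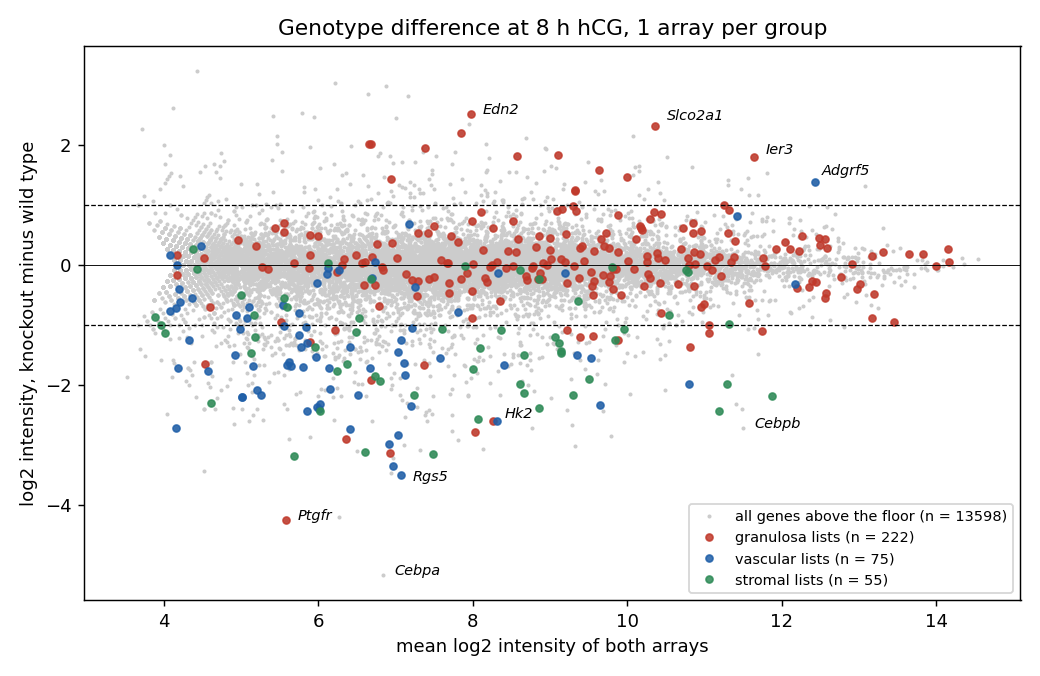
Log2 difference in intensity at 8 h (knockout minus wild type, vertical axis) against the mean log2 intensity of both arrays (horizontal axis) for 13598 genes above the floor, 1 point per gene, 1 array per group. Dashed lines mark 2-fold. Points of the vascular and stromal lists lie mostly below 0 (121 of 130), while those of the granulosa lists lie on both sides, with 18 of 222 lower and 15 higher past the rule.

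The lower genes were unevenly spread over gene lists. Compared were 20 lists with 505 genes in all. Not all granulosa lists are particular to that cell. They include cell cycle (31 genes above the floor), cholesterol biosynthesis (20), glycolysis and hypoxia (21) and immediate early genes (33). Members of any granulosa list are called granulosa genes. Theca genes were counted as stromal. Further lists covered vessels, stroma, blood, oocytes, surface epithelium, C/EBP genes and housekeeping. Of 222 granulosa-list genes above the floor, 18 (8.11%) were lower and 15 (6.76%) higher. Their median log2 difference was 0.05, and 65.8% lay within 0.5 of 0. Of 130 vascular and stromal genes above the floor, 84 (64.6%) were lower and 1 was higher, their median was -1.36, and 19.2% lay within 0.5 of 0. The background for these counts is the 3.93% lower and 1.52% higher among all genes, of which 83.8% lay within 0.5 of 0. Blood-cell genes lay between, with 9 of 33 lower, 1 higher and a median of -0.40. Intensities summed over all named vascular and stromal genes were 77344 in wild type and 41755 in the knockout, against 396626 and 399202 for the granulosa lists. The part that the cell makeup of the preparations has in the differences of single granulosa genes was not tested. Of the 222 granulosa genes, 8 (3.60%) lay below the vascular and stromal median of -1.36, as did 295 (2.17%) of all genes above the floor. The 8 were Ptgfr, Akr1c18, Oxtr, Abcb1b, Hk2, Ccnd1, Pfkfb3 and Has2.

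Read from the side of the called genes, vascular and stromal members made up 84 of the 535 lower genes (15.7%), 27 of the 100 with the largest fall and 14 of the 50 with the largest fall. Granulosa-list members made up 18 of the 535 lower genes (3.36%) and 5 of the 50. Of all genes above the floor, vascular and stromal members are 0.96% and granulosa-list members 1.63%. Among the 207 higher genes the shares were turned: 15 (7.25%) were granulosa-list members and 1 was vascular. Most called genes, 419 of the lower and 187 of the higher, were in no list.

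**Figure D2:**
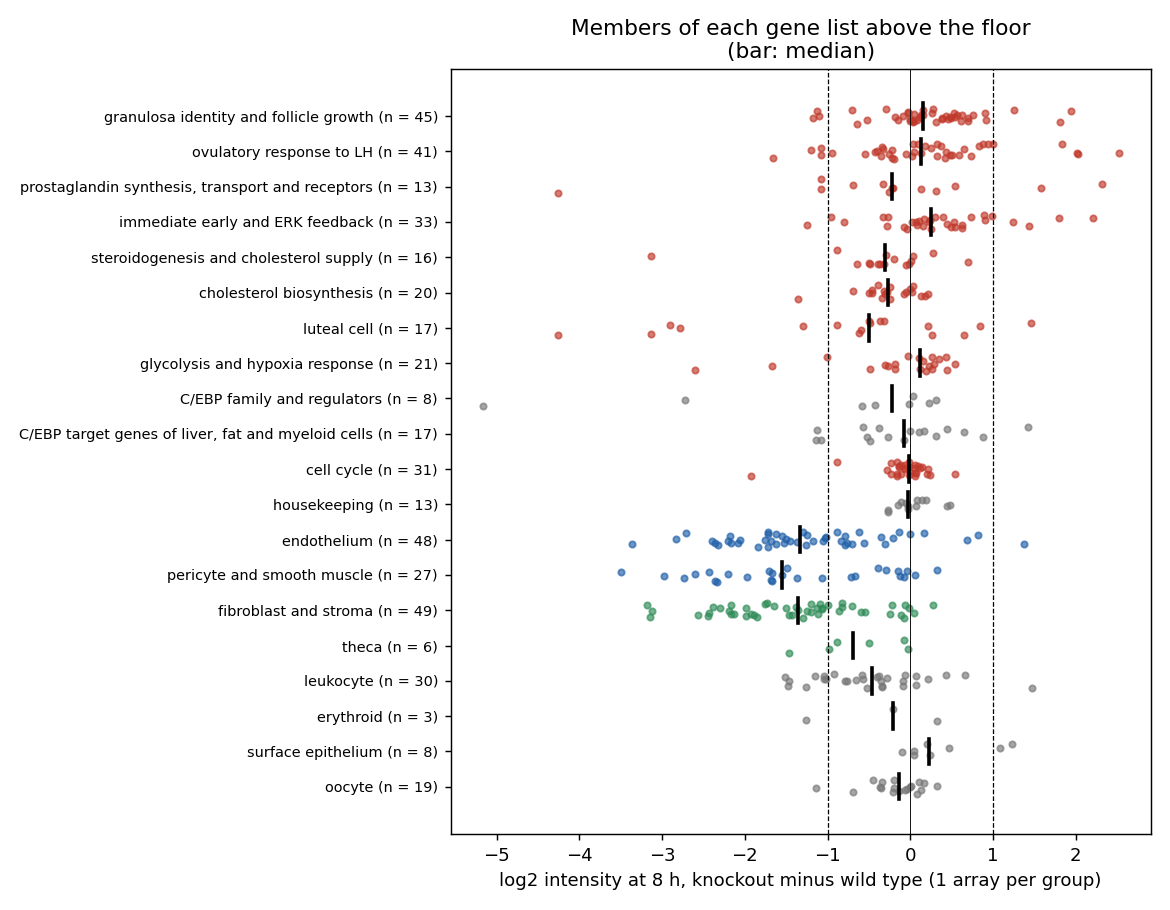
Log2 difference at 8 h (knockout minus wild type) for each member above the floor of 20 gene lists, 1 point per gene, with the black bar at the list's median and dashed lines at 2-fold. Granulosa lists are red, vascular lists blue, stromal lists green and other lists grey. The endothelial, pericyte and fibroblast medians lie between -1.34 and -1.55, and the lowest median of a granulosa list, that of luteal genes, is -0.50.

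Genes of granulosa identity and follicle growth leaned slightly upward in the knockout, with a median log2 difference of 0.16, and 31 of 45 above 0. Of the 45, 3 were higher and 3 lower past the rule. Irx5 and Irx3, homeobox genes of the fetal and neonatal granulosa lineage, were higher. Irx5 stood at 85 in wild type and 328 in the knockout (3.86-fold), and Irx3 at 417 and 992 (2.38-fold). Grem1, a secreted inhibitor of bone morphogenetic proteins, stood at 203 in wild type and 714 in the knockout, 3.52-fold higher. The lower members were all parts of signalling at the cell surface or outside it. Tgfbr3, the inhibin co-receptor betaglycan, was 1138 and 504, Fzd1, a Wnt receptor, was 3161 and 1444, and Fst, the activin-binding protein follistatin, was 5049 and 2358 (2.26-, 2.19- and 2.14-fold). Grb14, an adaptor of the insulin receptor, read 3536 and 3516, and Gja1, the gap-junction protein connexin 43, read 8705 and 9720.

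The ovulatory response to LH, which includes the EGF-like ligands, matrix genes and cytokines of the preovulatory follicle, was split. Of 41 members above the floor, 4 were lower and 5 higher, and the median was 0.13. Ereg, the EGF-like ligand epiregulin, stood at 1019 in wild type and 443 in the knockout, 2.30-fold lower. Btc, the related ligand betacellulin, was in contrast 293 and 1043, higher in the knockout. Has2, which makes the hyaluronan of the cumulus matrix, was dim at 41 and 13, at least 2.28-fold lower. Vcan, the matrix proteoglycan versican, was bright in both, at 12030 and 13654. The highest member was Edn2, the peptide endothelin-2 that contracts the follicle wall at ovulation, at 105 in wild type and 603 in the knockout, 5.74-fold higher. Sema3a, a guidance factor, was 50 and 204 (4.08-fold), and Lif, a cytokine, was 51 and 207 (4.06-fold). Ctsl, a lysosomal protease, read 18123 and 18776 by its brighter probe set but 565 and 166 by its other one, so its probe sets disagree.

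Prostaglandin genes moved in both directions along the pathway. Of 13 members, 3 were lower and 2 higher. Ptgs2, the inducible cyclooxygenase that starts synthesis, stood at 865 in wild type and 409 in the knockout, 2.11-fold lower. Its other probe set was dim and read 40 and 44, not past the rule. Among receptors, Ptger4, a receptor of prostaglandin E2, was 108 and 51, and Ptgfr, the receptor through which prostaglandin F2α ends luteal function, was 211 and 11. The Ptgfr fall was at least 11.7-fold, the largest bounded fold among granulosa-list genes. Of its further probe sets above the floor, one read 143 and 9, another 138 and 16, and a dim one 52 and 35. Genes that remove prostaglandins went the other way. Slco2a1, the transporter that carries prostaglandins into the cell, was 592 and 2949, 4.98-fold higher, and its 4 probe sets had log2 differences of 2.09 to 2.64. Hpgd, the dehydrogenase that inactivates them, was 459 and 1372, 2.99-fold higher. Pla2g4a, the phospholipase that releases arachidonic acid, read 1353 and 1167.

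Immediate early genes and ERK feedback genes, which report recent kinase signalling, leaned upward, with 25 of 33 members above 0 and a median of 0.25. Past the rule were 4 higher and 1 lower. Dusp4, a phosphatase that switches off ERK in the nucleus, stood at 107 in wild type and 496 in the knockout, 4.64-fold higher. Ier3 was 1716 and 5969 (3.48-fold), and Atf3, a stress-induced bZIP factor, was 75 and 203 (2.71-fold). Klf4, a zinc finger factor, was 418 and 986. Against these, Dusp1, another phosphatase of the MAP kinases, was 1459 and 612, 2.38-fold lower. Egr1 and Jund did not pass the rule, at 2360 and 3109 for Egr1 and 1369 and 2108 for Jund.

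Genes of steroid synthesis and cholesterol supply differed little, with 1 of 16 lower, none higher and a median of -0.30, although 12 of the 16 lay below 0. The exception was Akr1c18, the 20α-hydroxysteroid dehydrogenase that inactivates progesterone, at 361 in wild type and 41 in the knockout, 8.80-fold lower. Star, which carries cholesterol into mitochondria, was 9231 and 7421, and Fdx1, the electron donor of the side-chain cleavage enzyme, was 16492 and 16321. Cholesterol biosynthesis was similar, with 1 of 20 lower and a median of -0.26. That gene was Dhcr7, which catalyses the last step to cholesterol, at 2877 and 1120, 2.57-fold lower. Hmgcs1, an early enzyme of the pathway, read 7622 and 7759.

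Luteal genes, a list that overlaps the previous ones, held the largest share of falls among granulosa lists, with 5 of 17 lower, 1 higher and a median of -0.50. The lists were chosen with earlier results of these data known, so this share and that at 24 h may partly reflect the choice. Ptgfr and Akr1c18 are among the 5 lower genes. Oxtr, the oxytocin receptor, stood at 225 in wild type and 30 in the knockout, 7.50-fold lower, while its dim second probe set read 40 and 43. Abcb1b, a drug efflux pump, was 687 and 100, 6.87-fold lower, with a second probe set near the floor at 22 and 15. Bhmt, a methyltransferase of homocysteine metabolism, was 93 and 38. The higher gene was Cited4, a co-regulator that binds CBP and p300, at 615 and 1698. It rests on 1 probe set, whose name ends in _a_at, since the other one lay under the floor on both arrays (11 and 9). Sfrp4, a secreted Wnt modulator, read 9441 and 10938.

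In glycolysis and the hypoxia response 3 of 21 genes were lower and none higher, and the list's median was 0.12. Hk2, the inducible hexokinase, stood at 761 in wild type and 125 in the knockout, 6.09-fold lower. Pfkfb3, which makes the activator of phosphofructokinase, was 295 and 93, 3.17-fold lower, and Bnip3, a mitophagy receptor, was 3018 and 1504, 2.01-fold lower and lost under median centring. Ldha read 3322 and 3608. In the cell cycle list 1 of 31 genes passed the rule, with a median of -0.02: Ccnd1, cyclin D1, was 201 and 53, 3.79-fold lower, and its further probe sets read 202 and 45, and 45 and 30. Mcm7, part of the replicative helicase, read 2185 and 2327.

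**Figure D3:**
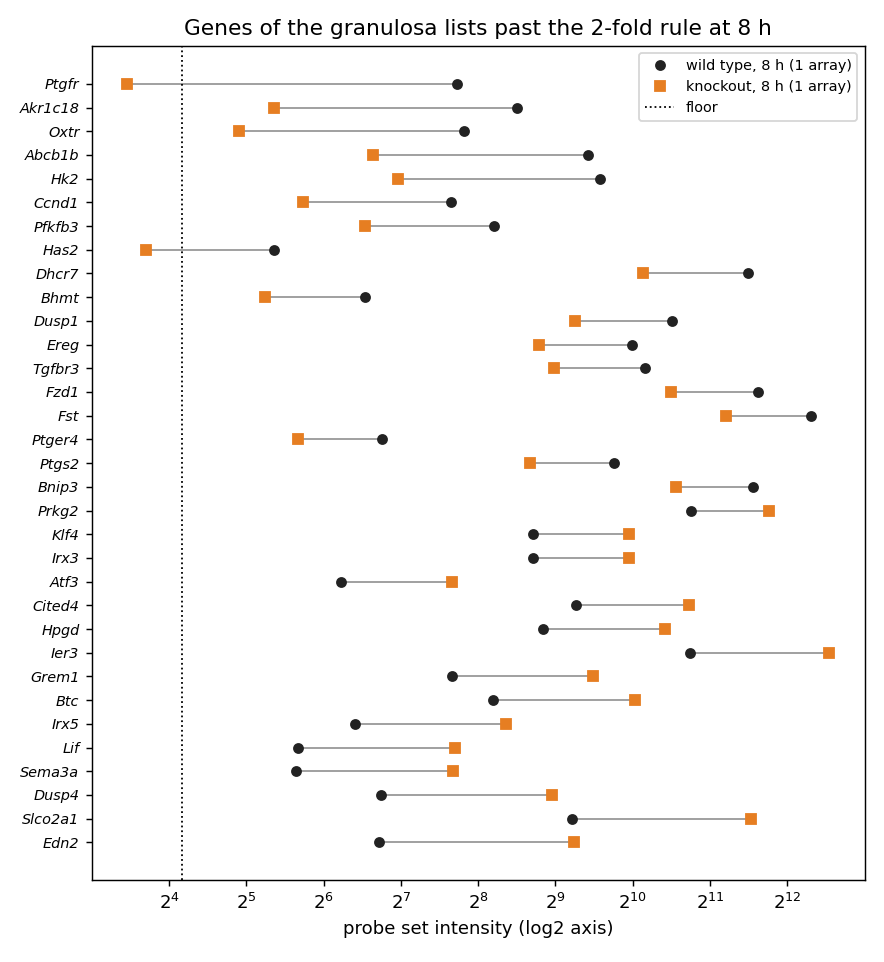
Intensities at 8 h of the 33 granulosa-list genes past the 2-fold rule, wild type as black circles and knockout as orange squares, on a log2 axis, 1 array per group. The dotted line marks the floor of 18. The knockout values of Ptgfr (11) and Has2 (13) lie under it, and the 15 higher genes, from Prkg2 to Edn2, lie above it on both arrays.

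Genes known as C/EBP targets in liver, fat and myeloid cells did not move as a block at 8 h. Of 28 such genes, 17 were above the floor, with a median of -0.08. Of the 17, 3 (17.6%) were lower and 1 (5.88%) higher, against 3.93% and 1.52% of all genes. Apart from Ptgs2 the lower ones were Hsd11b1, the reductase that makes active glucocorticoid, at 112 in wild type and 51 in the knockout, and Saa3, an acute phase protein, at 96 and 44. Gadd45a, a growth arrest gene, was 495 and 1327, 2.68-fold higher.

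To set the sequence beside these values, promoter windows of RefSeq genes, from 250 bases before to 50 after the start, were searched on both strands for the C/EBP-like letters TTGCNNAA and for the looser TTNCNNAA, which includes the first. The windows of GRCm38.p6 belong to the sequence table, while the array files state no build. TTGCNNAA occurred in 10.8% of all 32851 windows and TTNCNNAA in 40.7%. The shares below are per gene, in any of its windows. Counted so, TTGCNNAA was in 12.2% of all 27025 genes with a window and TTNCNNAA in 44.1%. Among the 10915 such genes above the floor the shares were 9.82% and 35.2%. Among genes with a window, 58 of 385 lower genes (15.1%), 19 of 164 higher genes (11.6%) and 995 of 10366 genes not called (9.60%) had TTGCNNAA. The looser letters were in 43.6%, 36.6% and 34.9% of them. Within the lower genes the share was 18% (9 of 50) for vascular and stromal members and 14.6% (49 of 335) for the rest. These are descriptions with no test, and a match is not a bound site. Stretches around the match are shown for the 4 named lower granulosa-list genes that had one, for Saa3, and, for contrast, for the higher gene Gadd45a and the stromal gene Fmod. Capitals mark the match, which in Abcb1b, Fzd1 and Saa3 reads on the opposite strand.
Ptgs2 (chr1:150099922-150100009, + strand, match at -69 from the start): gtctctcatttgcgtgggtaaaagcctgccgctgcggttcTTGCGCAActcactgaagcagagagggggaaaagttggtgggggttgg
Abcb1b (chr5:8797993-8798080, + strand, match at -114): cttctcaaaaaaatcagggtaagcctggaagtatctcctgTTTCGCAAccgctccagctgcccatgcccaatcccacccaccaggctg
Dhcr7 (chr7:143823070-143823157, + strand, match at -57, in 1 of 3 windows): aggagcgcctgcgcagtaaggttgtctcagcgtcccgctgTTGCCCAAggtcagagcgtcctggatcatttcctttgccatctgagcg
Fzd1 (chr5:4758253-4758340, - strand, match at -84): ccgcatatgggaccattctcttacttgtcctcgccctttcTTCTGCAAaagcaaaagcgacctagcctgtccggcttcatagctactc
Saa3 (chr7:46715728-46715815, - strand, match at -99): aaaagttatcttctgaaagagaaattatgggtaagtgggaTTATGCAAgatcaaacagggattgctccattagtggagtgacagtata
Gadd45a (chr6:67037455-67037542, - strand, match at -95): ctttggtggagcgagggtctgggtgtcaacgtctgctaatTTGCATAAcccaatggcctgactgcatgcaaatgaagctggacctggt
Fmod (chr1:134037089-134037176, + strand, match at -125): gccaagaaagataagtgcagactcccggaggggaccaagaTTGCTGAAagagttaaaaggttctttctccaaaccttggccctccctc

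Most vascular genes were lower in the knockout. Of 48 endothelial genes above the floor, 31 were lower and 1 higher, and the median log2 difference was -1.34 (-1.27 when values below the floor are set to the floor). Emcn, the endothelial sialomucin endomucin, stood at 400 in wild type and 39 in the knockout, 10.3-fold lower. Cd93, a receptor of endothelial cells, was 348 and 49 (7.10-fold), Clec14a was 148 and 28 (5.29-fold) and Icam2, an adhesion molecule, was 144 and 28 (5.14-fold). The canonical markers Pecam1, Cdh5 and Kdr were lower too, at 44 and 13, 208 and 87, and 216 and 79. Under the floor were 6 of the 53 members in wild type, Vwf among them, and 13 in the knockout.

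A few bright genes of the endothelial list did not share its fall. Adgrf5, an adhesion receptor, stood at 3411 in wild type and 8889 in the knockout, 2.61-fold higher, with both probe sets above 0 (1.38 and 1.49). Cd34 was 2056 and 3637, and Lyve1, a hyaluronan receptor of lymphatic vessels, was 5158 and 4163, neither past the rule. Ramp2 was 612 and 559. Aqp1, a water channel, was dimmer and read 114 and 183. The summed intensity of the 53 members was thus 16703 in wild type against 19330 in the knockout. Without Adgrf5 and Cd34 it was 11236 against 6804, and without these and Lyve1, the 3 brightest in wild type, 6078 against 2641, a ratio of 2.30. Both alternatives were chosen after the data were seen. Intensities of different probe sets are not on a common molar scale, so a sum leans on its brightest members. At 24 h Adgrf5 was 669 and 1271, Cd34 242 and 197, Lyve1 77 and 61, and Ramp2 288 and 1280.

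Pericyte and smooth muscle genes, the contractile cells around vessels and follicles, had the lowest median of the lists, -1.55, with 17 of 27 lower and none higher. Rgs5, a pericyte regulator of G-protein signalling, stood at 453 in wild type and 40 in the knockout, 11.3-fold lower, and its other probe sets above the floor had differences of -2.14 and -1.20. Actg2, Myh11 and Myl9, parts of the smooth muscle contractile apparatus, were 339 and 43, 219 and 33, and 784 and 129 (7.88-, 6.64- and 6.08-fold). The summed intensity of the list was 11989 and 3575. Under the floor were 1 member in wild type and 4 in the knockout.

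Fibroblast and stromal genes followed the same pattern, with 35 of 49 lower, none higher and a median of -1.36. Tcf21, a transcription factor of stromal precursors, stood at 533 in wild type and 60 in the knockout, 8.88-fold lower. Mfap5, a microfibril protein, was 287 and 33 (8.70-fold), Lum, the collagen-binding proteoglycan lumican, was 653 and 110 (5.94-fold), and its relative Fmod was 155 and 17, at least 8.61-fold lower. Its other probe sets above the floor differed less: 80 and 31, 62 and 30, 36 and 22, and 29 and 16, of which the last 2 pairs did not pass the rule. A dim second probe set of Tcf21 read 19 and 14. The collagen genes were also lower, Col3a1 at 8032 and 1762 and Col1a2 at 5019 and 1264. Not all members were: Fbln1 read 1845 and 1710, and Mfap2 read 1788 and 1692. The summed intensity stood at 42630 in wild type and 15326 in the knockout, with 2 and 7 members under the floor.

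Theca genes differed less, with 1 of 6 lower and a median of -0.69. That gene was Cyp17a1, the enzyme of androgen synthesis, at 939 in wild type and 339 in the knockout, 2.77-fold lower. The other members did not pass the rule. Aldh1a1, a retinoic acid synthesizing enzyme, was 3611 and 1822. Of the genes that report hedgehog signals from granulosa cells, Gli2 was 126 and 68, Gli1 38 and 27, Hhip 404 and 382, and Ptch1 904 and 886. The list summed to 6022 in wild type and 3524 in the knockout.

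Genes outside the lists also held large differences. Among those with at least 2 probe sets above the floor that all passed the rule, Cldn1, a tight junction protein, stood at 333 in wild type and 18 in the knockout, 18.5-fold lower. Cxcl14, a chemokine, was 467 and 55 (8.49-fold), Aplnr, the apelin receptor, was 812 and 97 (8.37-fold), and Vgll3, a TEAD cofactor, was 265 and 31 (8.55-fold). The noncoding A530020G20Rik was 1820 and 225 (8.09-fold), and Tmem204, Fgl2, Tmem100, Cavin2 and Igfbp3 were 6.0- to 7.50-fold lower. Aplnr, Tmem204, Tmem100 and Cavin2 are also known from endothelium, though none was in the list used. Higher were Zg16, a lectin, at 54 and 382 (7.07-fold), Kl, the FGF23 co-receptor klotho, at 110 and 563 (5.12-fold), and Serpinb9, an inhibitor of granzyme B, at 512 and 2290 (4.47-fold). Trim25, a ubiquitin ligase, was 785 and 2735 (3.48-fold), and Gm6958, Rapgef5, Sh3gl2, Syne1, Paqr8 and Pxylp1 were 3.54- to 5.58-fold higher.

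Some of these calls recurred in the 24 h pair. There, 525 of 13721 genes were lower in the knockout (3.83%) and 403 higher (2.94%). Of 13333 genes above the floor at both times, 142 were lower at both, 28.3% of the lower genes of either time, and 62 were higher at both, 33.5% of those at 8 h and 16% of those at 24 h. The recurrence differed between classes. Of the lower granulosa genes 12 of 17 were lower at 24 h as well, against 20 of 80 lower vascular and stromal genes and 105 of 391 in no list. Counted from 24 h the order was turned. Of 39 granulosa genes lower at 24 h, 12 were lower at 8 h. Of 21 vascular and stromal genes lower at 24 h, 20 were. These differences between classes were not tested. For the lower vascular and stromal genes the median intensity was 205 against 45 at 8 h, and 102.5 and 57.5 at 24 h, and 73 of the 84 (86.9%) had their highest value of the 4 arrays in wild type at 8 h. The genes were selected on that array, and over all 535 lower genes the count was 411 (76.8%). For the lower granulosa genes the median intensity was 724 and 112.5 at 8 h, and 996.5 and 187.5 at 24 h.

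**Figure D4:**
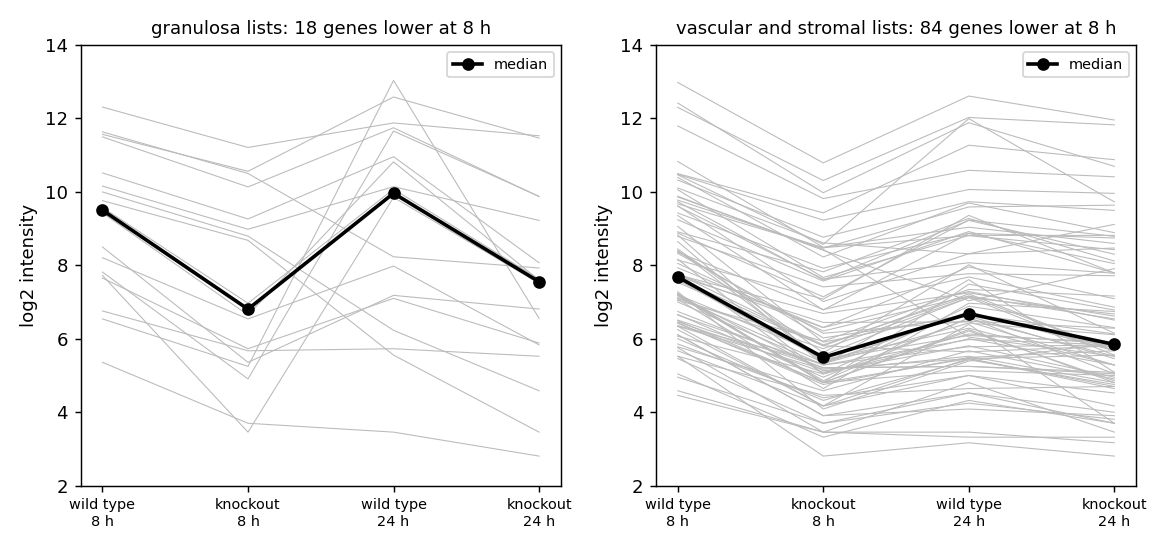
Log2 intensity on the 4 arrays (horizontal axis) of the 18 granulosa genes (left) and the 84 vascular and stromal genes (right) lower at 8 h, 1 grey line per gene, with the median in black. In wild type 8 h, knockout 8 h, wild type 24 h and knockout 24 h the median intensities are 724, 112.5, 996.5 and 187.5 on the left and 205, 45, 102.5 and 57.5 on the right.

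List medians of the vascular and stromal genes lay nearer to 0 at 24 h. The median log2 difference was -0.62 for endothelium, with 9 genes lower and 1 higher, -0.27 for pericytes and smooth muscle, with 5 lower, and -0.33 for fibroblasts and stroma, with 7 lower and 1 higher. Emcn was 195 and 34 and Rgs5 107 and 51, while Tcf21 was 102 and 70 and Myl9 318 and 553. Cholesterol biosynthesis went the other way in time, with 1 lower gene at 8 h but 13 of 20 at 24 h, where its median was -1.32. Glycolysis had 9 lower genes at 24 h and a median of -0.57, and luteal genes had 8 and a median of -0.90.

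Among single granulosa genes, several that were lower than in wild type at 8 h were lower at 24 h as well. At 24 h Hk2 was 1073 against 197, Abcb1b was 1797 and 193, Ptgfr was 920 and 182 and Oxtr was 3213 and 938. Wild-type levels of the last 3 were higher at 24 h than at 8 h, so the 8 h difference was measured on a lower level. Akr1c18, 8.80-fold lower at 8 h, read 145 and 112 at 24 h. Of the 15 higher granulosa genes, 5 were higher at 24 h, among them Dusp4 (33 and 178), Ier3 (948 and 3970), Grem1 (27 and 101) and Slco2a1 (167 and 509). Edn2 was the one of the 15 that was lower past the rule at 24 h, with 208 against 83, and Atf3 read 38 and 25. Bhmt, a modest difference at 8 h, was 8343 and 94 at 24 h.

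**Figure D5:**
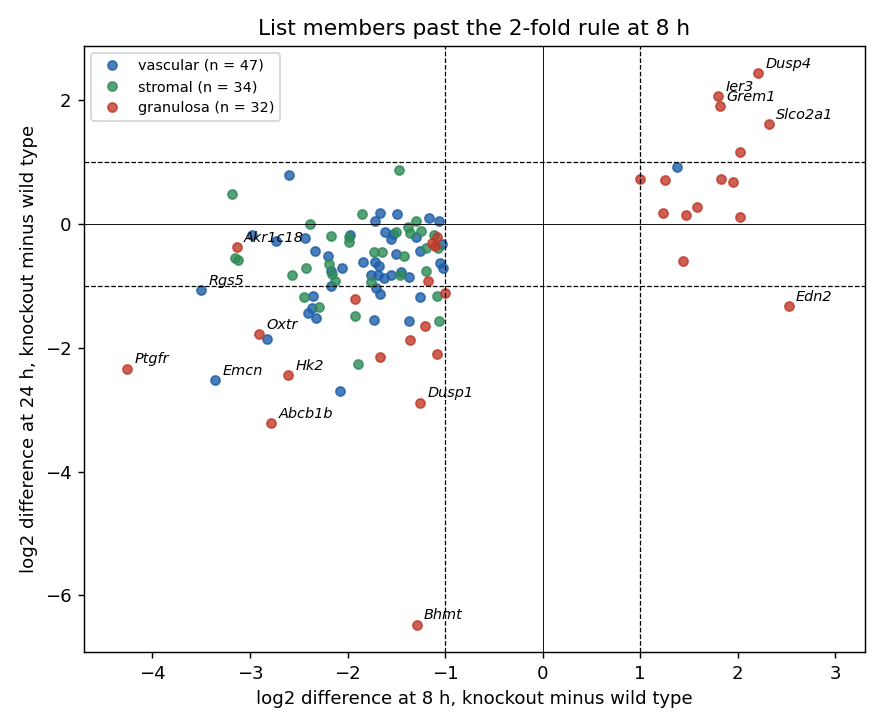
Log2 difference, knockout minus wild type, at 24 h (vertical axis) against 8 h (horizontal axis) for list members past the 2-fold rule at 8 h and above the floor at both times, 1 point per gene. Dashed lines mark 2-fold. Of the lower genes at 8 h, 12 of 17 granulosa genes but 20 of 80 vascular and stromal genes are also lower at 24 h, and Edn2 is the gene at lower right.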

How the data were processed

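RNA was isolated with an RNeasy kit, and 5 ug went into biotin-labelled cRNA, per the labels' protocols. The authors' deposited table holds whole-number intensities. Per the submitters' processing notes, affy and RMA were used, with no version given. The scale is not stated. RMA usually gives log2 values, but on the 2 arrays at 8 h these are whole numbers from 4 to 26250. They were therefore taken as linear intensities, an assumption on which every fold rests, and log2 was computed here. The knockout array at 4 h reached higher values, for example 51728 for Eef1a1. The genome build of the array files is not stated. Names came from the platform annotation: of 45101, 34958 had 1 symbol, 932 several and 9211 none listed, and 34754 identifiers matched a RefSeq gene table of GRCm38.p6. Of 505 listed genes, 33 were not named and are not analysed here. The number of arrays limits the precision.

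Members and gene lists were chosen with earlier results of these data known. Named are the 4 lower and 3 higher genes of largest fold in each list, the 10 lower and 10 higher genes in no list whose probe sets (at least 2) all passed, both targeted genes, and, as levels, the 2 members nearest to 0 among the 5 brightest in wild type of a granulosa list, whatever their difference. Other names were picked after seeing values, among them Pecam1, Cdh5, Kdr, Vwf, Cd34, Lyve1, Btc, Bhmt, Klf4, Inha, Foxl2, Col3a1, Col1a2, Fbln1, Mfap2, Ptch1, Hhip, Gli1, Gli2, Aldh1a1, Aqp1 and Prkg2. The scripts, tested on simulated data, used Python 3.11.15 with pandas 2.3.3, numpy 2.4.6, scipy 1.17.1, statsmodels 0.14.6 and matplotlib 3.10.9.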

Additional observations from a re-analysis of the deposited data

Results flagged for a closer look

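For 7 genes the genotype difference passed the 2-fold rule at 8 h and again at 24 h with the opposite sign. With 1 array per group the difference between times was not tested. The value given is the log2 difference at 24 h minus that at 8 h. Met, the receptor of hepatocyte growth factor, was lower in the knockout at 8 h (353 in wild type, 68 in the knockout) and higher at 24 h (57 and 117), a change of 3.41. Spns2, a transporter of sphingosine-1-phosphate, was 56 and 24 at 8 h and 186 and 636 at 24 h, a change of 3.0. Smpx was 131 and 57, then 24 and 134, a change of 3.68, and Gm2102 was 322 and 141, then 26 and 57, a change of 2.32. Cntnap5a was dim at 8 h, at 23 and 11, and 24 and 139 at 24 h, a change of 3.60. Turning the other way, Edn2, the peptide endothelin-2, was 105 and 603 at 8 h and 208 and 83 at 24 h, a change of -3.85. Sv2c stayed close to the floor at 16 and 36, then 26 and 13, a change of -2.17.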

How the results depend on the processing

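No paired analysis was possible because each group has 1 array and no replicate number, and for the same reason no replicate could be left out. Suffixed probe sets are those with names ending in _s_at, _x_at or _a_at. In some settings counts of lower genes stayed within 1.5 times, over all genes and in the granulosa, vascular and stromal classes. Counts of higher genes did so over all genes and in the granulosa class, the only class in which they were compared. These settings were choosing the probe set over 5 arrays, leaving out suffixed probe sets, dropping the floor and raising it to the 60th percentile. The others were median centring, quantile normalization, loess and centring on the granulosa lists. A 1.5-fold rule gave 1109 genes lower and 647 higher, 399 and 257 at both times, and 29 lower and 36 higher in granulosa lists. A 3-fold rule gave 212 and 62, 32 and 16 at both times, 8 and 9 in granulosa lists, and 20 lower stromal genes. With the mean of all probe sets, 40 genes were higher at both times and the vascular median was -1.16. With every probe set required to pass, 91 were lower at both times. With a pseudocount of 16, 87 were lower and 40 higher at both times, and the vascular median was -1.06. The alternatives for the 24 h pair were chosen after seeing the data. Without suffixed probe sets Cited4 was left with 1 under the floor on both arrays (11 and 9, a difference of -0.29). Its direction there was not measured.

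Of 77 named genes past the rule, the mean of probe sets lost Tgfbr3, Fzd1, Ptger4, Ptgs2 and Cited4, and requiring every probe set lost Fzd1, Ptgs2, Ptgfr, Oxtr, Abcb1b, Ccnd1, Tcf21 and Fmod. Leaving out less specific probe sets kept 68 of the 69 genes that still had a probe set and lost Cited4. The rest of the 77, Emcn, Ier3 and Grem1 among them, had only suffixed probe sets and could not be checked there. The higher floor lost Has2, median centring and quantile normalization each lost Bnip3, and the pseudocount lost Has2, Ptger4, Bnip3, Hsd11b1, Saa3 and Khdc3.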

Other observations

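The remaining cell type lists moved less than the vascular and stromal ones. Of 30 leukocyte genes above the floor at 8 h, 8 were lower in the knockout and 1 was higher, with a median log2 difference of -0.46. The macrophage genes C1qc, Lyz2, Fcgr3 and C1qa, for complement, lysozyme and an antibody receptor, were 103 in wild type and 36 in the knockout, 565 and 203, 122 and 44, and 122 and 51. Cd52, a surface glycoprotein of lymphocytes, was 69 and 192, 2.78-fold higher. The list's summed intensity was 2928 against 1905. Of 3 erythroid genes, Alas2, the first enzyme of heme synthesis in red cells, was lower at 280 and 117.

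Of 8 surface epithelium genes, 2 were higher and none lower. They were Krt8 and Krt18, the paired keratins of simple epithelia, at 500 and 1177 and at 230 and 490, while the list's median was 0.22. Of 19 oocyte genes all were above the floor on both arrays, and 1 was lower: Khdc3, a maternal factor, at 156 and 71. The oocyte list's median was -0.13 and its summed intensity was 8878 and 8298. None of 13 housekeeping genes passed the rule, and their median was -0.02.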
